A study of Mus musculus with 24 samples.

Results

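The genes for the opioid peptides and their receptors were followed through the prefrontal cortex (PFC) of stressed and unstressed mice. The members were chosen by symbol as the precursor genes Penk, Pdyn and Pnoc and the receptor genes Oprm1, Oprk1, Oprd1 and Oprl1. Of these 7 genes, 5 had a row among the 14074 genes of the expression table, and Oprm1 and Oprk1 were not analysed here. The question was whether these transcripts differed with chronic social stress, with the coping strategy of the stressed animals, or with an acute glucocorticoid challenge.

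All 24 libraries came from adult male C57BL/6 mice, 1 library per mouse. Stressed animals lived through 30 days of social defeat by CD1 aggressors and were sorted by their behaviour during non-aggressive contact with the partner into passive (PS) and active (AS) copers, while controls were not defeated and were housed alone before the experiment. Each phenotype received a single injection of saline or of 2 mg/kg dexamethasone (DEX), a synthetic glucocorticoid, and the PFC was taken 6 h later. This gave 6 groups of 4 mice, namely control saline, control DEX, PS saline, PS DEX, AS saline and AS DEX, and mice are named below by group and number. The coping groups were clusters of behaviour and not strains or genotypes, and the study had left out animals with atypical behaviour. The tissue was a block of several frontal areas taken after the olfactory bulbs had been removed.

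Opioid peptides are cut from larger precursor proteins and act on receptors coupled to inhibitory G proteins, which lower cAMP, open potassium channels and close calcium channels. In the cortex the precursors are made mainly by local interneurons and by some pyramidal neurons, and the system is known for its part in stress, pain and reward. Penk encodes the enkephalins, which prefer the delta (Oprd1) and mu (Oprm1) receptors, Pdyn encodes the dynorphins of the kappa receptor (Oprk1), and Pnoc encodes nociceptin, the ligand of the related receptor Oprl1.

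The repeated design of the precursors can be read in the coding sequence. The longest open reading frame of each gene's first listed mouse transcript (GENCODE vM21, GRCm38) held 268 codons for Penk, 248 for Pdyn and 187 for Pnoc. Translated in frame, Penk held 6 Met-enkephalin units and 1 Leu-enkephalin unit, and Pnoc held 1 nociceptin. Pdyn held 3 Leu-enkephalin units, the start of its longer opioid peptides. They are shown because one Penk transcript therefore stands for 7 peptide units and one Pnoc transcript for 1. In the lines below, the capitals mark the codons of the pentapeptide (for Pnoc, the first codons of nociceptin) and the lower case letters the neighbouring codons, 5′ to 3′ on the transcript.
Penk unit 1: aagaagTACGGAGGCTTCATGaaacgg
Penk unit 2: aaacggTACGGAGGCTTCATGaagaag
Penk unit 3: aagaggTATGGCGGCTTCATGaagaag
Penk unit 4: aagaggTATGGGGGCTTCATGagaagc
Penk unit 5: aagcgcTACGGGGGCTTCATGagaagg
Penk unit 6: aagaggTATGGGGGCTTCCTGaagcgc
Penk unit 7: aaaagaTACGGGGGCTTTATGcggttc
Pdyn unit 1: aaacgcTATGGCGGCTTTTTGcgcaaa
Pdyn unit 2: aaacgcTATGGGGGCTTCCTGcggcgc
Pdyn unit 3: aagcgcTATGGTGGTTTCCTGcggcgt
Pnoc unit 1: aaaaggTTTGGGGGCTTCACCggggcc
A pair of codons for basic residues, the cutting site of the prohormone convertases, preceded every one of these units. In Penk such a pair also followed 5 of the 7 units, and in Pdyn it followed 3 of 3. These pairs were counted as codons only. The Pdyn units are just the start of longer opioid peptides, so the pair after them is not read as a cutting site. The 7 Penk units used 6 different codon spellings for 2 peptides, so that only units 1 and 2 were identical over the capitals.

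All values are normalized counts, that is gene counts that the study divided by 1 size factor per library. Depth ran from 21121869 to 59439645 reads on genes per library, and the members had between 116 (Pnoc) and 2945 (Penk) reads in a library. Control libraries had 21121869 to 24753489 reads with saline and 21252256 to 24086770 with DEX. With saline, PS libraries had 21493398 to 59439645 and AS libraries 23481722 to 40268349. With DEX, PS libraries had 22253648 to 32055506 and AS libraries 24908942 to 52422858. Depth thus differed between control and stressed mice. The DEX labels were checked on Fkbp5, a classical glucocorticoid receptor target, which lay between 761 and 1088 in the saline libraries and between 2931 and 4198 in the DEX libraries. The tissue label was checked on markers. Of the pyramidal neuron markers 8 of 9 were in the table, with sums of 158539 to 228750, and all 10 interneuron markers were, with sums of 23586 to 34206. Libraries of different groups stood apart in a pair of measures, whose part in the results was not tested beyond the values given here. Of the olfactory bulb markers 4 of 5 were in the table (Tbx21 was not), and their sum exceeded 1000 in control saline 117 (4709), PS DEX 34 (3719), AS saline 14 (1691) and PS saline 2 (1653), against 105 to 938 in the other 20. A length index was taken for each library as the median log2 deviation of the 1202 genes with the longest merged exons minus that of the 1202 with the shortest, among 12011 genes. It was lowest in AS DEX 60 (-0.53), AS saline 44 (-0.45), PS DEX 34 (-0.41) and control DEX 101 (-0.17), and lay between -0.08 and 0.27 in the other 20.

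Among the members, Penk was the most abundant. Scaled per kilobase of merged exons, Penk stood at a mean of 797 normalized counts, followed by Pdyn at 276, Oprl1 at 274, Oprd1 at 131 and Pnoc at 87.9. Penk exceeded Pdyn in 24 of 24 libraries, and Oprl1 exceeded Oprd1 in 24 of 24. Pdyn and Oprl1 could not be ordered, because Pdyn was the higher in 11 of 24. Oprd1 exceeded Pnoc in 21 of 24 libraries. Within groups the SD was 18.0% of the mean for Penk, 18.4% for Oprd1, 15.2% for Pnoc, 9.49% for Pdyn and 5.71% for Oprl1, so that Oprl1 was the most even of the 5 and Oprd1 and Penk the least.

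**Figure D1:**
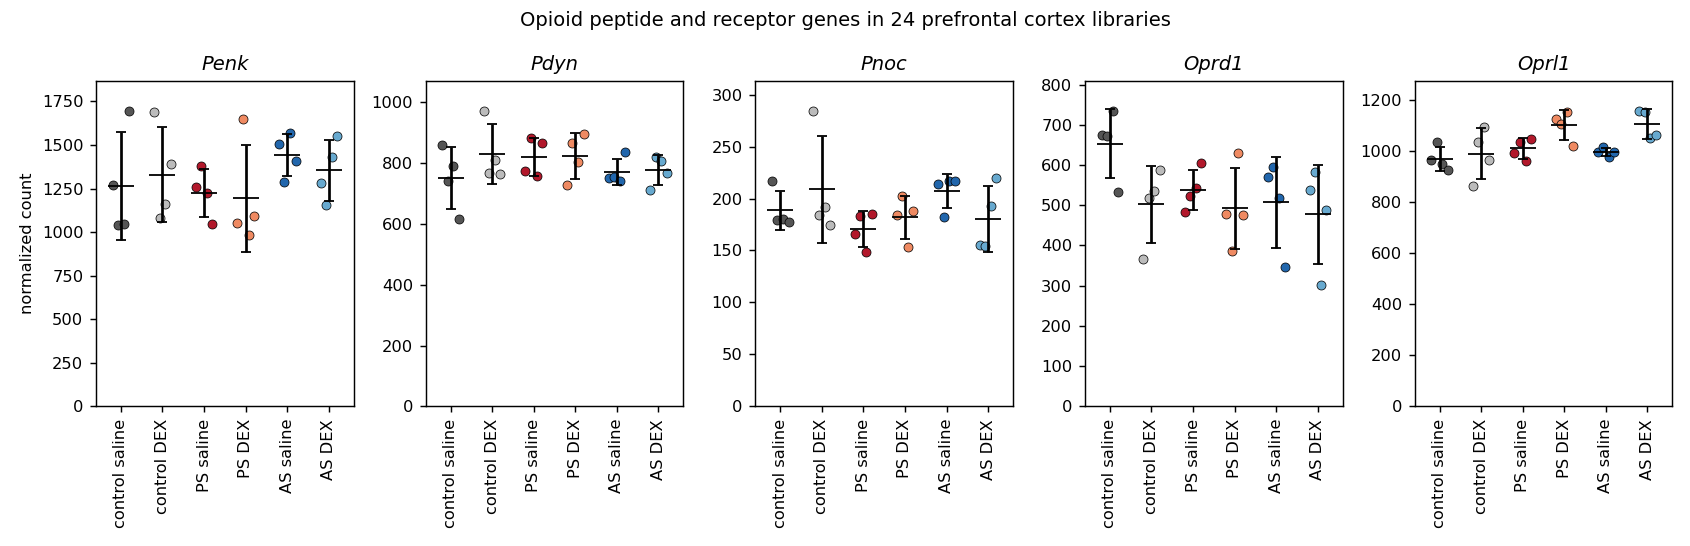
Normalized counts (vertical axis, from 0) of the 5 members in every library, with 1 point per mouse, the 6 groups side by side and the mean ± SD of 4 mice as a bar with whiskers. Within the 9 comparisons of 2 groups tested, the groups overlap for each gene except Oprl1 in AS mice, where every DEX library (1051 to 1160) exceeds every saline library (979 to 1018).

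Penk (chromosome 4, 4133531 to 4138819, minus strand, mm10) carries the enkephalins. It measured 1270, 1041, 1045 and 1698 in control saline mice 106, 107, 109 and 117, and 1690, 1080, 1163 and 1388 in control DEX mice 101, 108, 112 and 122. It measured 1256, 1378, 1227 and 1044 in PS saline mice 2, 28, 62 and 68, and 1055, 1651, 982 and 1090 in PS DEX mice 6, 34, 52 and 56. It measured 1506, 1290, 1567 and 1405 in AS saline mice 8, 14, 40 and 44, and 1281, 1153, 1429 and 1553 in AS DEX mice 38, 42, 60 and 72. All groups overlapped, and the 3 highest libraries came from 3 different groups. The largest of the 9 differences between pairs of groups that were tested was AS against PS with saline, at a log2 fold change of 0.24 (SE 0.16, 95% confidence interval -0.10 to 0.57, adjusted p = 0.934, limma). DEX averaged over the phenotypes gave -0.03 (SE 0.093, adjusted p = 0.932), and stress averaged over the treatments gave 0.02 (SE 0.099, adjusted p = 0.949).

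Of these 3 highest Penk libraries, control saline 117 and PS DEX 34 had the largest sums of olfactory bulb markers. Across the 24 libraries Penk had a Pearson r of 0.57 and a Spearman rho of 0.59 with the level of these markers (the mean of their log2 values). This is a description over libraries that share depth and dissection. The other libraries over 1000, AS saline 14 (1290) and PS saline 2 (1256), lay near the median of 1248 in the remaining 20. Without the 4 libraries over 1000, the AS against control difference with saline was 0.42 on the log2 scale (SE 0.14, interval 0.13 to 0.71, adjusted p = 0.264), against 0.22 (SE 0.16, adjusted p = 0.621) with them. Penk was called in neither fit. A830012C17Rik overlaps Penk on the other strand, and the counting setting for strand was not given in the sources used here.

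**Figure D2:**
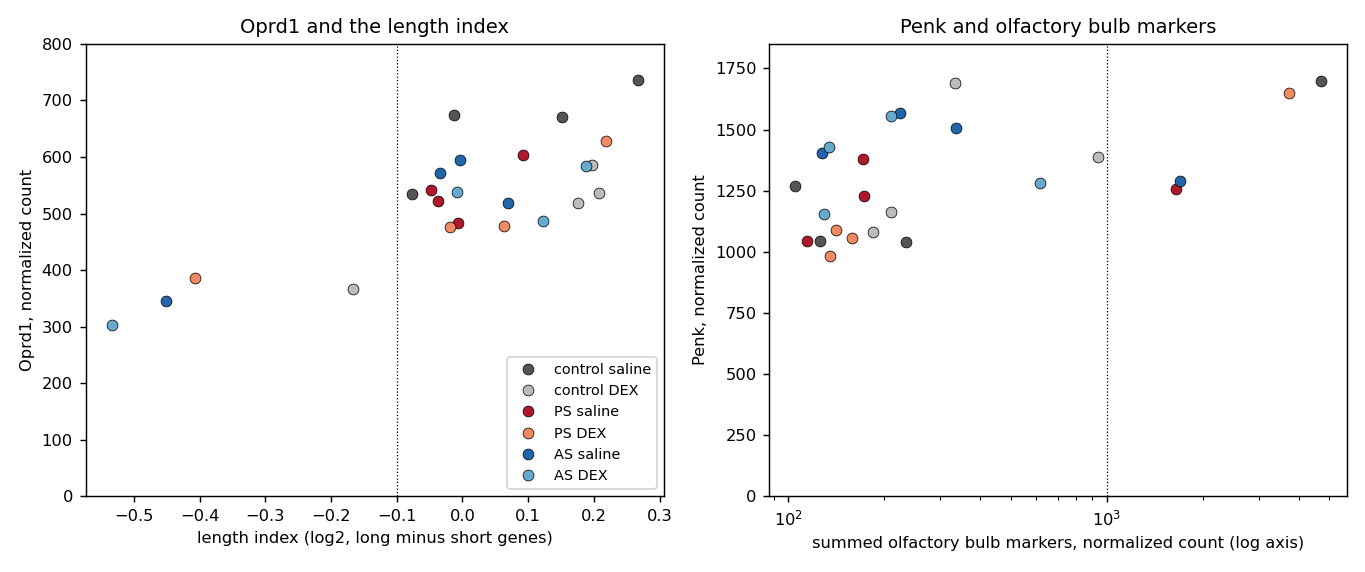
Left, Oprd1 (normalized count) against the length index of each library (log2), with a dotted line at -0.1; right, Penk against the summed olfactory bulb markers (normalized count, log axis), with a dotted line at 1000. Points are single mice coloured by group; the 4 libraries left of the line hold the 4 lowest Oprd1 values (302 to 386), and the highest Penk value (1698) lies at the highest marker sum (4709).

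Pdyn (chromosome 2, 129686565 to 129699844, minus strand) carries the dynorphins. It measured 860, 740, 791 and 616 in control saline mice 106, 107, 109 and 117, and 973, 768, 812 and 766 in control DEX mice 101, 108, 112 and 122. It measured 773, 882, 757 and 865 in PS saline mice 2, 28, 62 and 68, and 728, 867, 805 and 897 in PS DEX mice 6, 34, 52 and 56. It measured 752, 753, 740 and 835 in AS saline mice 8, 14, 40 and 44, and 710, 822, 808 and 768 in AS DEX mice 38, 42, 60 and 72. The lowest and the highest of the 24 values were both in control animals, and the 6 groups overlapped throughout. The largest of the 9 differences between pairs of groups was DEX in controls, at 0.15 on the log2 scale (SE 0.095, interval -0.05 to 0.34, adjusted p = 0.52). Over these 9 differences the intervals ran from 0.821-fold to 1.27-fold.

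Pnoc (chromosome 14, 65400673 to 65425472, minus strand), the nociceptin precursor, was the lowest member. It measured 217, 180, 180 and 177 in control saline mice 106, 107, 109 and 117, and 285, 184, 192 and 174 in control DEX mice 101, 108, 112 and 122. It measured 166, 183, 148 and 185 in PS saline mice 2, 28, 62 and 68, and 184, 203, 153 and 188 in PS DEX mice 6, 34, 52 and 56. It measured 214, 183, 216 and 217 in AS saline mice 8, 14, 40 and 44, and 155, 154, 193 and 220 in AS DEX mice 38, 42, 60 and 72. The AS saline mice held 3 values above every PS saline value, but AS saline 14 lay among them, and the difference was 0.28 on the log2 scale (SE 0.14, interval -0.01 to 0.57, adjusted p = 0.934). After DEX, AS and PS differed by -0.02 (SE 0.14, adjusted p = 0.9998). The DEX response of AS mice, -0.21 (SE 0.14, adjusted p = 0.481), differed from that of controls by -0.33 (SE 0.20, adjusted p = 0.485).

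Oprd1 (chromosome 4, 132110726 to 132144486, minus strand), the delta receptor, was lower on average in each of the other groups than in saline-treated controls, but overlapped with them in each. It measured 674, 671, 735 and 534 in control saline mice 106, 107, 109 and 117, and 367, 518, 536 and 587 in control DEX mice 101, 108, 112 and 122. It measured 483, 523, 542 and 604 in PS saline mice 2, 28, 62 and 68, and 478, 386, 629 and 476 in PS DEX mice 6, 34, 52 and 56. It measured 572, 595, 519 and 345 in AS saline mice 8, 14, 40 and 44, and 538, 583, 302 and 487 in AS DEX mice 38, 42, 60 and 72. Control saline held the 3 highest values of all, and 1 library each of control DEX, PS DEX, AS saline and AS DEX held the 4 lowest. The DEX difference in controls was -0.39 on the log2 scale (SE 0.19, interval -0.79 to 0.0018, adjusted p = 0.33), and the AS against control difference with saline was also -0.39 (SE 0.19, interval -0.78 to 0.0085, adjusted p = 0.463). The PS against control difference with saline was -0.28 (SE 0.19, adjusted p = 0.568), and DEX averaged over the phenotypes gave -0.21 (SE 0.11, adjusted p = 0.27).

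The 4 lowest Oprd1 libraries, at 302 to 386 against 476 to 735 in the other 20, were the 4 libraries with the lowest length index. Oprd1 had an r of 0.834 with this index and a rho of 0.621 over the 24 libraries. Its own merged exons (4021 bases) were longer than those of 40.7% of the genes compared, so it was not one of the long genes of the index. Of the other members, Penk had an r of -0.56 and Oprl1 of 0.14. Penk (1634 bases) was itself one of the short genes of the index (up to 1909 bases). The sign of its r is therefore not independent of how the index was built. With the index as a covariate, an alternative chosen after the values were seen, Oprd1 passed the threshold with DEX in controls, at -0.42 (SE 0.085, adjusted p = 0.00240, where 12.5% of all genes were called) and averaged over the phenotypes, at -0.23 (SE 0.049, adjusted p = 0.00175, where 22.2% were called). Without the 4 libraries it was not called, at -0.25 (SE 0.11, adjusted p = 0.231) and -0.12 (SE 0.065, adjusted p = 0.232). With the index as a covariate, the stress differences with saline and averaged over the treatments were nearer to 0 and were not called. Averaged over the treatments, Oprd1 differed between stressed and control mice by -0.20 (SE 0.12, adjusted p = 0.404), and by -0.02 (SE 0.055, adjusted p = 0.893) with the covariate. With saline, AS against control became -0.15 (SE 0.088, adjusted p = 0.482) and PS against control -0.17 (SE 0.086, adjusted p = 0.263). Without the 4 libraries the averaged stress difference was -0.14 (SE 0.069, adjusted p = 0.294). What set these libraries apart was not tested; the labels state that all RNA passed 1 common integrity limit.

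Oprl1 (chromosome 2, 181715016 to 181720985, plus strand), the nociceptin receptor, was the only member called. The call was higher with DEX averaged over the phenotypes, near the threshold, and no single phenotype was called. It measured 965, 1037, 950 and 929 in control saline mice 106, 107, 109 and 117, and 865, 1038, 1097 and 965 in control DEX mice 101, 108, 112 and 122. It measured 995, 1038, 963 and 1050 in PS saline mice 2, 28, 62 and 68, and 1126, 1107, 1156 and 1020 in PS DEX mice 6, 34, 52 and 56. It measured 998, 1018, 979 and 997 in AS saline mice 8, 14, 40 and 44, and 1160, 1153, 1051 and 1064 in AS DEX mice 38, 42, 60 and 72. In AS mice every DEX value exceeded every saline value, a separation in that direction that 4.0% of all genes showed. In PS mice 3 of 4 DEX values exceeded all saline values, and in controls the groups overlapped. Averaged over the 3 phenotypes the DEX difference was 0.10 on the log2 scale (SE 0.038, interval 0.02 to 0.18), or 1.07-fold, with an adjusted p of 0.0963 (limma), in a comparison where 15.5% of all genes were called.

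By phenotype the Oprl1 response to DEX was 0.15 in AS (SE 0.065, adjusted p = 0.218), 0.12 in PS (SE 0.065, adjusted p = 0.438) and 0.03 in controls (SE 0.065, adjusted p = 0.913). These responses were not shown to differ, since AS minus control gave 0.12 (SE 0.092, interval -0.07 to 0.31, adjusted p = 0.608). With DEX, Oprl1 was 0.16 higher in AS than in controls (SE 0.065, adjusted p = 0.275) and 0.16 higher in PS (SE 0.065, adjusted p = 0.292), both short of the threshold. The averaged call was close to the threshold and was lost in 18 of 24 fits that left out 1 library. The adjusted p ran from 0.0194 without control DEX 101 to 0.185 without control DEX 112, and the log2 fold change from 0.08 to 0.12. The call held without control saline 107, control DEX 101, PS saline 68, PS DEX 56, AS DEX 60 or AS DEX 72. Without the 4 libraries of lowest length index, a comparison in which 24.6% of all genes were called, Oprl1 differed by 0.13 (SE 0.036, adjusted p = 0.0156), and within AS mice it then passed the threshold at 0.17 (SE 0.065, adjusted p = 0.0864), where 18.6% of genes did. On reads thinned to the smallest library, edgeR called it in AS mice as well (adjusted p = 0.0815), beside 8.9% of genes. Averaged over the treatments, stressed mice differed from controls by 0.11 (SE 0.040, adjusted p = 0.172), and by 0.13 (SE 0.038, adjusted p = 0.0739) with the length index as a covariate, where 4.21% of genes were called. This stress difference was smaller and not called without the 4 libraries of lowest length index, at 0.08 (SE 0.038, adjusted p = 0.294), and with library size as a covariate, at 0.08 (SE 0.046, adjusted p = 0.532). Striatal markers moved with DEX in the same libraries. Of this list 6 of 10 genes were in the table (not Drd2, Adora2a, Six3 and Isl1), none of the 6 at 0, and their sum ran from 5022 to 6413 in control saline, 5359 to 5618 in PS saline and 5236 to 5874 in AS saline, against 6104 to 6721 in control DEX, 6048 to 6298 in PS DEX and 6123 to 7975 in AS DEX. With the mean log2 level of these markers as a covariate, the Oprl1 difference was 0.04 (SE 0.059, adjusted p = 0.826). In these bulk samples, fewer cells of a type and less RNA per cell cannot be told apart.

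**Figure D3:**
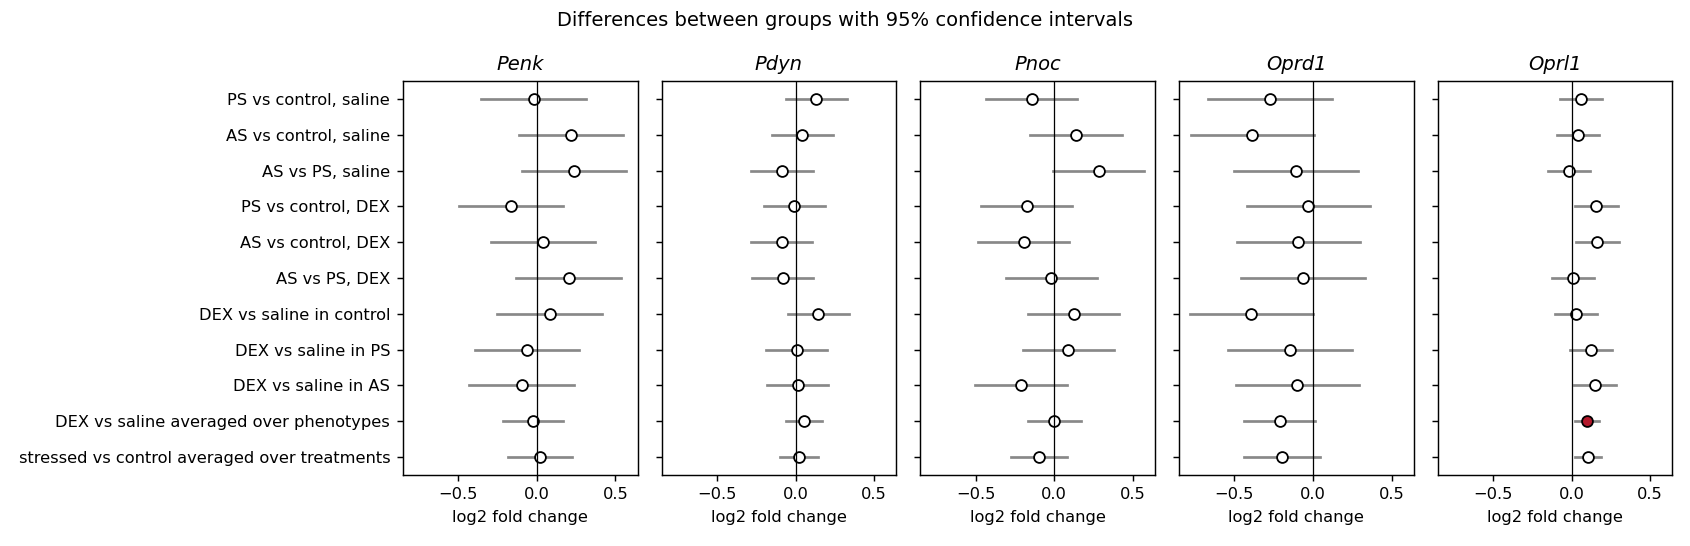
Log2 fold changes (points) with 95% confidence intervals (lines) of the 5 members in 11 comparisons, 1 panel per gene, from the limma model over 14074 genes. Open points were not called; the filled point is Oprl1 after DEX averaged over the phenotypes, at 0.10 with an interval of 0.02 to 0.18.

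Because Oprl1 was the member called, the sequence before its RefSeq start site (GRCm38.p6, chr2:181714766-181715015, plus strand) is shown, 5′ to 3′. It was searched on both strands for AGAACA, the hexamer bound by the glucocorticoid receptor, and the capitals mark the match on the minus strand, 206 bases before the start.
Oprl1 promoter: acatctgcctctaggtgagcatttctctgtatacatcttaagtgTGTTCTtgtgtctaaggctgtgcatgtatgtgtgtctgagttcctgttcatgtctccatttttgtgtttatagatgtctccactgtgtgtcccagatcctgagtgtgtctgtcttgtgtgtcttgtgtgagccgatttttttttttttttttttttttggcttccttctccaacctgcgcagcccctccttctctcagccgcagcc
Promoters were matched for Pdyn, Oprl1, Oprd1 and Oprm1, 9 in all, and the hexamer was also found 64 bases before the third Oprl1 start. Of 32851 mouse promoters, 16.1% held this hexamer within the same 250 bases, so a match is a description of the letters and not of binding. No full palindromic site (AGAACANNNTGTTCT) and no cAMP response element (TGACGTCA) was found in the 9 windows. Of all promoters, 0.00913% held the full site and 1.55% held the response element.

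Over the 15 comparisons and 5 members, 1 of 75 tests was called and 5 had an unadjusted p under 0.05, all 5 of them in Oprl1. The 15 comparisons share groups, so these 5 are not separate results. For the same reason, their share of the 75 tests cannot be judged against the threshold of 0.05. edgeR and DESeq2 on the recovered reads each called Oprl1 in the averaged DEX comparison and no member in the other 14. No member was called in PS against control with saline, where 1.51% of all genes were, or in AS against control with saline, where 0.156% were. None was called with DEX in controls, PS or AS, where 6.49%, 5.36% and 8.77% of genes were called. With saline, stress over both phenotypes called 1.49% of genes, and averaged over the treatments it called 3.33%, again without a member. After DEX, 0.199% of genes were called in PS against control and 0.867% in AS against control. PS and AS differed in 0.0% of genes with either treatment, with 671 genes (saline) and 580 genes (DEX) at an unadjusted p under 0.05. Of the 45 pairs of groups over the 5 members and 9 pairwise comparisons, 1 did not overlap, that of Oprl1 in AS mice. Among all genes, the shares with 4 values all above and all below the other 4 were 5.15% and 6.12% in PS against control with saline, 3.45% and 3.06% in AS against control with saline, and 2.86% and 2.36% in AS against PS with saline. They were 4.26% and 3.01%, 3.07% and 4.02%, and 0.739% and 0.966% for the same pairs with DEX. For DEX against saline they were 5.81% and 4.32% in controls, 5.54% and 4.57% in PS, and 4.0% and 5.02% in AS. The interaction terms called 0.0% of genes for PS, 0.348% for AS and 0.0% for AS minus PS. With 4 mice per group the 95% intervals of the pairwise fold changes reached from 0.58-fold to 1.29-fold for Oprd1 and from 0.708-fold to 1.48-fold for Penk, but only from 0.899-fold to 1.23-fold for Oprl1.

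The genes around the opioid system were taken from 6 lists of 49 genes, of which 45 were in the table. Averaged over the phenotypes, 2 of these 45 rose with DEX and 10 fell. None of 6 precursor processing genes was called, and 3 of 13 coupling genes and 6 of 11 receptor regulators were, in a comparison that called 15.5% of all genes. The 2 most abundant processing enzymes were Cpe, the carboxypeptidase that trims basic residues, at 0.03 (SE 0.040, adjusted p = 0.742), and Pcsk2, a prohormone convertase, at -0.01 (SE 0.047, adjusted p = 0.963). Their levels ran from 44900 to 58269 for Cpe and from 15499 to 20505 for Pcsk2.

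Among 5 of 7 peptide-degrading enzymes in the table, Anpep, an aminopeptidase that cleaves enkephalins, fell by 0.41 on the log2 scale with DEX (SE 0.16, adjusted p = 0.0966), and this call was lost in 15 of 24 fits without 1 library. The most abundant ones, Npepps (0.01, SE 0.036) and Ece1 (-0.01, SE 0.044), were not called. Of 3 of 4 further opioid genes in the table (Ackr3, Ogfr and Ogfrl1, without Pomc), none was called. The scavenger receptor Ackr3 gave 0.04 (SE 0.065), and Ogfr and Ogfrl1 gave -0.06 (SE 0.049) and 0.10 (SE 0.041).

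Receptor coupling genes had a median of -0.05 on the log2 scale with averaged DEX, beside -0.002 over all genes. Adcy8, a calcium-stimulated adenylyl cyclase, fell by 0.82 in controls (SE 0.16, adjusted p = 0.0020), from 526 to 873 in saline to 268 to 405 in DEX. In PS it ran from 449 to 552 in saline and from 379 to 519 in DEX, and in AS from 451 to 582 and from 306 to 495, without a call in either. Kcnj9, a subunit of the potassium channels that G proteins open, fell in controls by 0.30 (SE 0.070, adjusted p = 0.0118) and in PS by 0.22 (SE 0.070, adjusted p = 0.0781), with no overlap between groups in either. Gnai2, an inhibitory G protein subunit, fell in AS by 0.31 (SE 0.084, adjusted p = 0.0272). The 2 most abundant coupling genes, Gnao1 (0.02, SE 0.035) and Adcy1 (0.03, SE 0.11), were not called with averaged DEX.

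Receptor regulators had a median of -0.11 with averaged DEX. Grk5, a kinase that phosphorylates activated receptors, fell by 0.48 in PS (SE 0.090, adjusted p = 0.0018) and by 0.53 in AS (SE 0.090, adjusted p = 0.000589), with levels of 702 to 778 in PS saline and 512 to 553 in PS DEX. In controls Grk5 ran from 599 to 804 in saline and from 604 to 696 in DEX and was not called. Grk3, of the same kinase family, rose in controls by 0.26 (SE 0.083, adjusted p = 0.0770), from 2756 to 3106 in saline to 3443 to 3702 in DEX. Of the regulators of G protein signalling, which end G protein activity, Rgs19 fell in controls by 0.26 (SE 0.071, adjusted p = 0.0370) and Rgs20 in PS by 0.28 (SE 0.085, adjusted p = 0.0664), and averaged over the phenotypes Rgs7 and Rgs14 also fell, by 0.13 and 0.14. Without single libraries, the call of Grk3 in controls was lost in 7 of 24 fits, that of Rgs20 in PS in 6, that of Kcnj9 in PS in 6, that of Gnai2 in AS in 2 and that of Rgs14 averaged over the phenotypes in 16. The 2 most abundant regulators, Rgs4 (-0.11, SE 0.052) and Arrb1 (-0.09, SE 0.048), were not called.

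**Figure D4:**
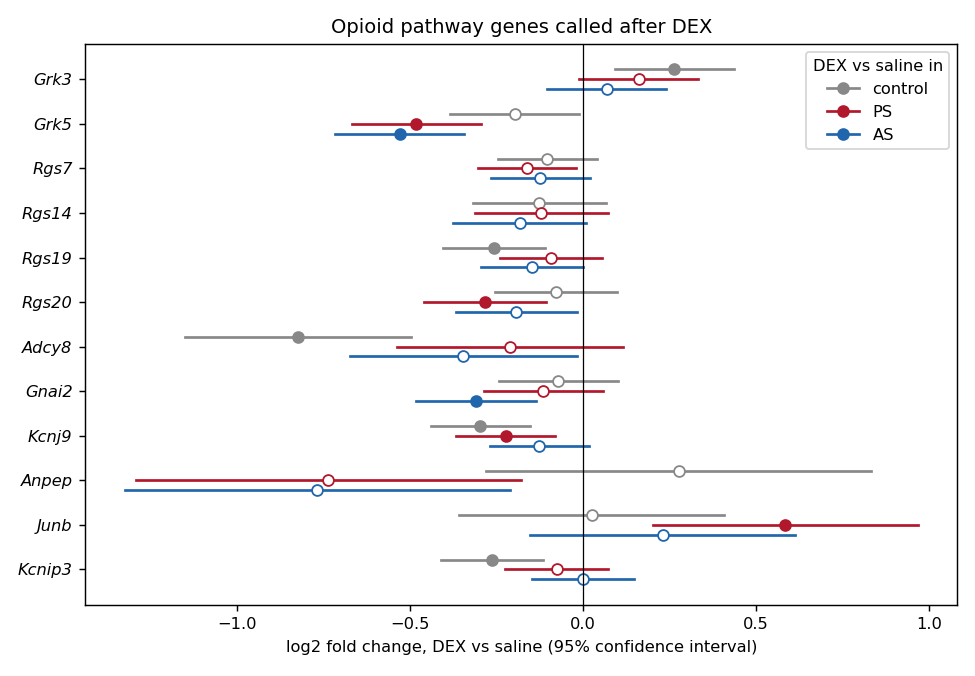
Log2 fold changes of DEX against saline (horizontal axis, with 95% confidence intervals) for the 12 pathway genes called in the averaged DEX comparison, by phenotype. Filled points were called within that phenotype, such as Adcy8 in controls (-0.82) and Grk5 in PS (-0.48) and AS (-0.53); open points were not.

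Of 7 factors that act on precursor genes, Kcnip3, the calcium-dependent repressor DREAM that binds the Pdyn gene, fell in controls by 0.26 (SE 0.072, adjusted p = 0.0335), and Junb, an AP-1 factor, rose in PS by 0.58 (SE 0.19, adjusted p = 0.0873), calls that were lost in 2 and 9 of 24 fits without 1 library. Creb1 gave -0.04 with averaged DEX (SE 0.053, adjusted p = 0.778). None of the 45 genes was called in the interaction terms, so no DEX response of a pathway gene was shown to differ between phenotypes. Stress averaged over the treatments called 2 of the 45, both lower, namely Cacna1a, a presynaptic calcium channel subunit, at -0.18 (SE 0.049, adjusted p = 0.0610), and Grk6, another receptor kinase, at -0.10 (SE 0.030, adjusted p = 0.0880), calls that were lost in 6 and 14 of 24 such fits. With library size as a covariate, neither Cacna1a nor Grk6 was called. No pathway gene was called between PS and AS or between stress and control with 1 treatment alone.

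The genes whose levels ran most like each member over the 24 libraries were sought among the 12013 other genes that averaged 100 normalized counts or more. For Oprd1 they were Slc4a8 (r = 0.946), Dock3 (r = 0.941) and Tcf20 (r = 0.935), which were lowest in the same 4 libraries with the lowest length index. For Penk they were Dbi (r = 0.868), Ccdc106 (r = 0.855) and Atf5 (r = 0.846). Dbi had an r of -0.81 with the length index and Slc4a8 of 0.915. Dbi (1422 bases) was one of the short genes of the index, and Slc4a8 (13021 bases) and Dock3 (14448 bases) were long ones. Their opposite signs are therefore not independent of how the index was built. Tcf20, Ccdc106 and Atf5, in neither set, had an r of 0.833, -0.62 and -0.67 with it. For Pnoc they were Cxcl14 (r = 0.841), Cyp46a1 (r = 0.782) and R3hdm4 (r = 0.777), for Oprl1 Rnf6 (r = 0.813), Cpox (r = 0.782) and Tafa2 (r = 0.771), and for Pdyn Nrn1 (r = 0.766), Rnf39 (r = 0.735) and Cinp (r = 0.696). Among the members themselves, Penk and Pnoc had an r of 0.56 and Penk and Oprd1 of -0.52. These values describe 24 libraries that share depth, dissection and RNA handling.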

How the data were processed

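RNA-seq of the PFC was read from 1 table of 24 libraries, with groups taken from the library names. In these names con was read as control, dep1 as PS and dep2 as AS. The names themselves do not say passive or active. Poly(A) RNA was sequenced as stranded, paired-end libraries. Per the submitters' processing notes and the study's methods, reads were trimmed with fastp 0.20.1, aligned to mm10 with HISAT2 2.2.1, counted on GENCODE vM22 genes with featureCounts (Subread 2.0) and scaled with DESeq2 1.36.0. What the authors deposited is a signal, the count of each gene after division by a size factor for its library, so alignment, counting and scaling are part of each value. The authors' tables of fold changes and p-values were not used. In 100% of values the table gave whole reads within 0.01 read, and these recovered reads gave depth (21121869 to 59439645 per library); genes with few reads are less precise.

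Differences were tested with limma 3.58.1 (R 4.3.3, trended eBayes) on log2(normalized count + 1), with 1 mean per group over all 24 libraries and all 14074 genes, and a Benjamini-Hochberg adjusted p under 0.1 was called. A fold change on this scale understates changes of low genes. The model was tested on simulated counts of independent genes, with the same dispersion for every gene and libraries that differed in depth. That simulation did not cover library differences such as those in the length index or the olfactory bulb markers. Alternatives were a pseudocount of 8, at least 10 reads in every library, a mean of at least 100, quantile normalization, the compared groups alone, library size or striatal marker level as a covariate, edgeR 4.0.16 and DESeq2 1.42.0 on recovered reads, edgeR on reads thinned to the smallest library, and each library omitted in turn; the olfactory bulb and length index alternatives were added after seeing the data. The least different replicates had a chi-square of 5.74 per gene, so no library was counted as a repeat of another.

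The members, lists and rules were chosen with earlier results of these data known. Named genes were all members, the pathway genes called, up to 4 per comparison by size, with the further ones of the averaged DEX comparison added, the 2 most abundant of each list, and the 3 genes most like each member. Coordinates, exons and coding frames came from GENCODE vM21 and promoters from RefSeq.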

Additional observations from a re-analysis of the deposited data

Results flagged for a closer look

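Within each group of 4, the highest and lowest value of each member were compared with the nearest other value by Dixon's ratio at its 95% limit. Of 30 groups of values 5 passed, where chance gives about 1 in 20. Pnoc stood high in control DEX 101 (285) and control saline 106 (217) and low in AS saline 14 (183). Penk stood high in PS DEX 34 (1651), and Pdyn in AS saline 44 (835). Control DEX 101, PS DEX 34 and AS saline 44 were also among the 4 libraries with the lowest length index, and PS DEX 34 and AS saline 14 among the 4 with the highest olfactory bulb marker sum. Control DEX 101 in addition held the highest Pdyn (973) and the lowest Oprl1 (865) of all 24 libraries. The part of these library properties in the values was not tested.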

How the results depend on the processing

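The count of members called stayed at its value in every alternative that could be fitted, apart from those named here. In the averaged DEX comparison it was 1 (Oprl1), and it was 0 with quantile normalization, with the striatal or olfactory bulb marker level as a covariate and without the 4 libraries rich in olfactory bulb markers, 2 with the length index as a covariate (Oprl1 and Oprd1), and 0 to 1 without single libraries, where the 1 without AS saline 44 was Oprd1 (-0.27, adjusted p = 0.0871). The count rose from 0 to 1 for DEX in controls with the length index (Oprd1), for DEX in AS with thinned reads (Oprl1, where 8.9% of genes were called) and without the 4 libraries of lowest length index (Oprl1, where 18.6% were), and for averaged stress with the length index (Oprl1, adjusted p = 0.0739, where 4.21% were). No called difference reversed; of 2840 refitted member differences 150 took the other sign, called in neither fit. Of 25 calls of pathway genes 7 held in every alternative, those of Adcy8 and Kcnj9 (controls and averaged DEX), Grk5 (PS and averaged DEX) and Grk3 (averaged DEX). The alternative of the compared groups alone does not apply to both averaged comparisons, which use all groups. The causes were not tested. No paired analysis was possible because mouse numbers do not recur between groups.

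Counts over all genes moved more. For PS against control with saline 213 genes were called and 30 to 1144 in the alternatives, for AS against control with saline 22 (5 to 226), for stress with saline 210 (42 to 881) and for averaged stress 468 (47 to 916). The 47 came with library size as a covariate. For DEX they were 913 (611 to 1753) in controls, 755 (415 to 1287) in PS, 1234 (119 to 2624) in AS and 2178 (961 to 3469) averaged. For PS and AS against control with DEX they were 28 (0 to 312) and 122 (0 to 417), and for the AS interaction 49 (1 to 896). Where 0 were called, alternatives gave up to 11 (AS against PS with saline), 9 (AS against PS with DEX), 23 (PS interaction) and 0 (AS minus PS, with 344 genes at an unadjusted p under 0.05). Depth limits Pnoc most, at 116 reads in its lowest library.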

Other observations

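Markers of other cell types also moved with DEX, and their part in the values of the opioid genes was not tested. Of 5 microglial markers, 3 fell in the averaged DEX comparison, where 15.5% of all genes were called, namely P2ry12, a purine receptor, by 0.54 on the log2 scale (SE 0.039, adjusted p = 5.1e-10, limma), the fractalkine receptor Cx3cr1 by 0.61 (SE 0.062, adjusted p = 1.3e-07) and Aif1 by 0.76 (SE 0.11, adjusted p = 3.4e-05). The other markers, Tmem119 (0.02, SE 0.054) and Csf1r (-0.05, SE 0.044), were not called. The summed microglial markers lay between 4569 and 5225 in the DEX libraries of PS and AS mice and between 5791 and 6784 in their saline libraries, whereas those of controls overlapped (4794 to 6221 with DEX and 5149 to 6078 with saline). Of 5 astrocyte markers, the water channel Aqp4 fell by 0.36 (SE 0.051, adjusted p = 1.7e-05) and Aldh1l1 rose by 0.28 (SE 0.051, adjusted p = 0.000392). Gfap, Slc1a3 and Gja1 were not called in the averaged DEX comparison, and the median of the list was -0.08.

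Described over the 24 libraries, which share depth and dissection, Oprl1 had an r of -0.58 with the microglial, -0.63 with the astrocyte and -0.65 with the endothelial markers. Penk had an r of 0.639 with the astrocyte and of -0.58 with the pyramidal neuron markers, and Oprd1 of 0.565 with the latter. Claustrum markers summed to 3232 to 6181 and oligodendrocyte markers to 17191 to 43325.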
